A study of Mus musculus with 30 samples.

Results

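Fetal lung of mouse litters exposed to 10 mg/kg/day of perfluorooctane sulfonate (PFOS) was compared with fetal lung of unexposed litters. The comparison takes the 5 lung arrays labelled with that dose and the 5 lung arrays labelled 0 mg/kg/day, which are 10 of the 30 arrays of the series. PFOS is a persistent fluorinated surfactant, and CD-1 dams, an outbred stock, received it by gavage as the potassium salt in 0.5% Tween 20 from gestation day 1 to 17. The unexposed dams are described under the same vehicle, and lungs of both groups were taken on gestation day 18, when the lung is close to air breathing. Each array holds RNA pooled from 3 fetuses of 1 litter, so the litter is the replicate and differences between fetuses of a litter are not seen. Transcripts were measured on Affymetrix mouse expression arrays, and the 12897 genes detected in lung were tested. Levels are log2 values, so a difference of 1 is a doubling of signal, and every change below is the mean of the exposed litters minus the mean of the unexposed litters.

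PFOS is known as an agonist of peroxisome proliferator-activated receptor alpha (PPAR alpha), a nuclear receptor for fatty acids. With its partner RXR the receptor binds DNA at paired copies of a short core motif, and its known targets import fatty acids into peroxisomes and mitochondria and break them down by beta-oxidation. Late in gestation the lung epithelium fills with surfactant made by alveolar type 2 cells, flat alveolar type 1 cells line the air spaces, capillaries come to lie against them, and the mesenchyme between them thins.

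The arrays carried the markers of lung. In unexposed litters the mean level of Sftpc, surfactant protein C of alveolar type 2 cells, was 13.58, and it was 5.18 in unexposed liver. Scgb1a1 of club cells stood at 12.84 in unexposed lung and Ager of alveolar type 1 cells at 12.73. Transcripts typical of liver and of heart muscle were present as well. Alb, the plasma protein albumin of hepatocytes, stood at 12.25 in unexposed lung against 13.85 in unexposed liver. Actc1, the actin of heart muscle, stood at 10.33 in unexposed lung. The source of these transcripts was not tested. Across probe sets, Pearson's r was 0.989 to 0.994 for arrays of 1 dose and 0.989 to 0.995 for arrays of 0 with 10 mg/kg/day. The first principal component of the lung arrays held 17.4% of the variance and the next 17.0%. The mean level of 4 Y-linked genes was 2.24 in unexposed litter 4 and 2.06 in exposed litter 1 and lay between 5.52 and 6.74 in the other 8 of the 10 litters, and with it as a covariate 4 genes were called. In bulk tissue, fewer cells of a type and less RNA per cell cannot be told apart.

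Few genes differed between the groups after adjustment. At an adjusted p under 0.05 (limma, Benjamini-Hochberg over all genes tested) 7 genes were called, 0.0543% of those tested, of which 5 rose and 2 fell. The 5 that rose, Cyp4a14, Ehhadh, Acaa1b, Cyp4a12a and Angptl4, are all lipid genes that fetal liver expresses more strongly than lung. Of these, Cyp4a12a counted as detected only through litters exposed to 5 and 10 mg/kg/day. With no detection filter its limma adjusted p was 0.0653. The 2 that fell, Mme and Dlc1, are expressed more strongly in lung. At an unadjusted p under 0.05, 488 genes were higher (3.78%) and 403 lower (3.12%), 891 in all where 644.85 would pass if no gene differed. The median change over all genes was 0.01. Leaving out 1 litter at a time gave 3 to 11 calls. The count was 3 without unexposed litter 3 or exposed litter 5, and 11 without exposed litter 1, in which Cyp4a14, Ehhadh, Acaa1b and Cyp4a12a were lowest among exposed litters.

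**Figure D1:**
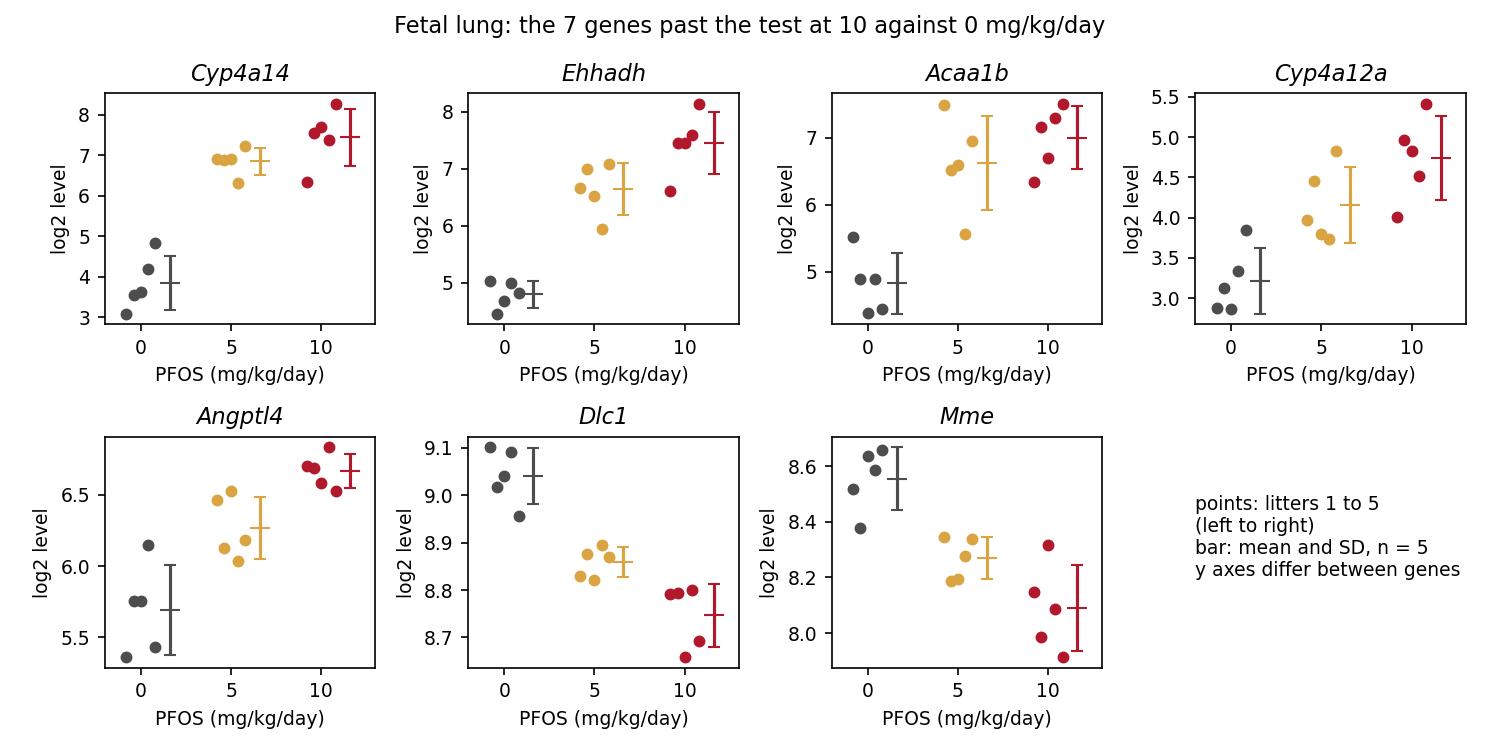
Log2 level (y axis, which differs between panels) of the 7 called genes in each fetal lung array against the dose of PFOS in mg/kg/day (x axis). Points are litters 1 to 5 from left to right and bars are the mean and SD of 5 litters; in every panel the exposed litters at 10 mg/kg/day lie wholly above or wholly below the unexposed litters.

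Cyp4a14, a cytochrome P450 that hydroxylates the omega end of fatty acids, had the largest change of any gene tested. In unexposed litters 1 to 5 its levels were 3.08, 3.54, 3.61, 4.18 and 4.83, and in exposed litters 1 to 5 they were 6.33, 7.55, 7.71, 7.38 and 8.27. The groups were well apart, the nearest litters being unexposed litter 5 and exposed litter 1. The mean rose by 3.60 (SE 0.33, adjusted p = 7.08e-05). Unexposed litters 1 to 3 lay below the detection filter, which was 4.16 to 4.22 on these arrays. With each unexposed level below the filter raised to it, the mean was at least 8.76-fold higher in exposed litters. Its relative Cyp4a12a was dim, below that filter in all 5 unexposed litters and in exposed litter 1, so that the gene entered the test through litters exposed to 5 and 10 mg/kg/day alone. It stood at 2.88, 3.13, 2.87, 3.34 and 3.85 in those and at 4.01, 4.97, 4.83, 4.52 and 5.41 in exposed litters. The groups did not overlap, although unexposed litter 5 and exposed litter 1 were close. The measured change of Cyp4a12a was 1.53 (SE 0.26, adjusted p = 0.04999), just inside the threshold, and with unexposed levels raised to the filter its mean was at least 1.48-fold higher. The call was lost in 12 of the 15 fits that left out a litter.

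Ehhadh and Acaa1b carry out successive steps of peroxisomal beta-oxidation, Ehhadh as the bifunctional enzyme and Acaa1b as the thiolase that releases acetyl-CoA. Ehhadh stood at 5.03, 4.46, 4.68, 4.99 and 4.83 in unexposed litters and at 6.62, 7.45, 7.45, 7.60 and 8.14 in exposed litters. The unexposed litters were tightly grouped, and exposed litter 1 was the lowest and litter 5 the highest of the exposed. Ehhadh rose by 2.66 (SE 0.24, adjusted p = 7.08e-05), or 6.30-fold. Acaa1b stood at 5.52, 4.89, 4.38, 4.89 and 4.45 in unexposed litters and at 6.34, 7.16, 6.69, 7.29 and 7.50 in exposed litters. It rose by 2.17 (SE 0.31, adjusted p = 0.0111), or 4.50-fold, with no overlap. Without unexposed litter 3 or exposed litter 5 the adjusted p of Acaa1b passed 0.05, at changes no smaller than 2.04.

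Angptl4 encodes a secreted protein that inhibits lipoprotein lipase and is a known PPAR target in many tissues. Its levels were 5.36, 5.76, 5.75, 6.15 and 5.43 in unexposed litters and 6.70, 6.69, 6.58, 6.83 and 6.52 in exposed litters. Exposed litters varied less than unexposed ones, with SDs of 0.12 and 0.31. Angptl4 rose by 0.97 (SE 0.13, adjusted p = 0.00873), or 1.96-fold, and kept its call without any 1 litter. Its other probe set lay below the detection filter and had a change of -0.13, and with both averaged the change was 0.42 and the call was lost. Lpl, the lipase that Angptl4 inhibits, was 0.32 higher (SE 0.10, adjusted p = 0.545), with the groups overlapping.

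The promoters of the genes on this axis are shown because PPAR alpha acts through a known DNA element. The RefSeq table of promoters (GRCm38.p6, 250 bases before to 50 after a gene start) holds 3 of the 7 called genes, and those of Ehhadh and Acaa1b are printed with that of Fabp1, the fatty acid binding protein of liver. Both strands were searched for the core motif AGGTCA and for 2 looser cores 1 base apart, AGGNCANAGGNCA, where N is any base. Capitals mark either match, and a core inside the pair overlaps it.
Ehhadh, chr16:21787785-21788084, minus strand: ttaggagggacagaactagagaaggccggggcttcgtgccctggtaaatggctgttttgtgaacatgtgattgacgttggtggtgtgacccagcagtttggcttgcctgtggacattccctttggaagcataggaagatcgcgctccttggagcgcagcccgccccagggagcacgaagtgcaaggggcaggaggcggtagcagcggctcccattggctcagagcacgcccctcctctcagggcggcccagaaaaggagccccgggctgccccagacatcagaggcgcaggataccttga
Acaa1b, chr9:119157044-119157343, minus strand: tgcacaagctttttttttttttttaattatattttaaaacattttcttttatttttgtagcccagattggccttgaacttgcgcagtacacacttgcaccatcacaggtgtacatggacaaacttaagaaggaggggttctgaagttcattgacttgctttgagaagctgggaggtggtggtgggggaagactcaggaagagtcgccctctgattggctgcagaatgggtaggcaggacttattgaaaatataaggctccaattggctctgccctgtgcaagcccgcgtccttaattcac
Fabp1, chr6:71199629-71199928, plus strand: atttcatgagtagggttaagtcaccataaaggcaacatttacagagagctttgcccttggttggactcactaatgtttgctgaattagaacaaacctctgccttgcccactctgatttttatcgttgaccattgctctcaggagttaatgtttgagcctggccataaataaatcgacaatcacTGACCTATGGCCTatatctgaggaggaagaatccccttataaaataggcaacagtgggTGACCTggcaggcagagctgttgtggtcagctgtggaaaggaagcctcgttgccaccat
Neither motif was found in these windows of Ehhadh and Acaa1b, or in those of Mme. The window of Fabp1 held the pair, read on the opposite strand, with its first base at position -67 from the gene start, and another core at -9. Of the 58 tested PPAR targets of fatty acid oxidation, 46 had a promoter in the table, 13 of these held the core and 1, Fabp1, held the pair. Over all 32851 promoters of the table the core was in 16.3% and the pair in 0.381%. These shares count promoters, whereas a listed gene was counted if any of its promoters held the motif. The list and the table are thus counted in unlike units, and a difference between them was not tested. A match is a string of letters and not a measured binding site.

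Fabp1 had the second largest difference of the genes tested and was not called. Its levels were 8.04, 5.94, 5.48, 7.23 and 6.83 in unexposed litters and 7.54, 10.07, 9.73, 9.37 and 10.27 in exposed litters. Unexposed litter 1 lay above exposed litter 1, and the other exposed litters lay above every unexposed litter. The change was 2.69 (SE 0.53, adjusted p = 0.144), it was 2.99 with the hepatocyte level of each array as a covariate (adjusted p = 0.000276), and it was 3.16 without exposed litter 1 (adjusted p = 0.0135). Fabp1 was picked for description after its values were seen, as were Ech1, Acot1, Acadl, Hadh, Slc25a20, Etfb, Ephx2, Vegfd, Wnt11, Actn2, Mfap4, Ear3, Serpina1c and Retnla below.

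Of 58 tested PPAR targets of fatty acid oxidation, a list written with results of these data known, 5 were called and all 5 rose. Among them, Cyp4a12a entered the test through exposed litters alone, and its call was lost with no filter. At an unadjusted p under 0.05, 27 were higher and none lower, where over all genes 3.78% were higher. The list's median change was 0.18 against 0.01 over all genes, and 15 members had every exposed litter above every unexposed litter, as 0.636% of all genes did. Averaged over the list, levels lay between 6.90 and 7.10 in unexposed litters and between 7.25 and 7.61 in exposed litters, with no overlap. Among members without a call, Ech1, an isomerase of unsaturated fatty acid breakdown, was 0.38 higher (SE 0.07, adjusted p = 0.144), and Acot1, a cytosolic thioesterase, was 0.53 higher (SE 0.11, adjusted p = 0.170), each without overlap. Slc27a2, which activates very long chain fatty acids, was 1.01 higher and the epoxide hydrolase Ephx2 was 0.72 higher, with overlapping litters (adjusted p = 0.495 and 0.529). With the hepatocyte level of each array as a covariate in limma, they were 1.20 and 0.85 higher (adjusted p = 0.000594 and 0.00238). Pdk4, a kinase that turns off pyruvate dehydrogenase and so spares glucose, was 0.47 higher (adjusted p = 0.616).

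Mitochondrial beta-oxidation genes had small differences, all in 1 direction. None of the 19 tested was called. All 19 had a change above 0, as 6727 of the 12897 genes did, and 16 were higher at an unadjusted p under 0.05, beside 3.78% of all genes. The median change was 0.26 and the range 0.02 to 0.43. In 10 members every exposed litter lay above every unexposed litter, beside 0.636% of all genes. All 19 are expressed more strongly in fetal liver than in lung by the limit used here. Averaged over its members the list stood at 8.38, 8.40, 8.32, 8.48 and 8.38 in unexposed litters and 8.55, 8.66, 8.60, 8.53 and 8.89 in exposed litters. The groups did not overlap, and exposed litter 5 was the highest.

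**Figure D2:**
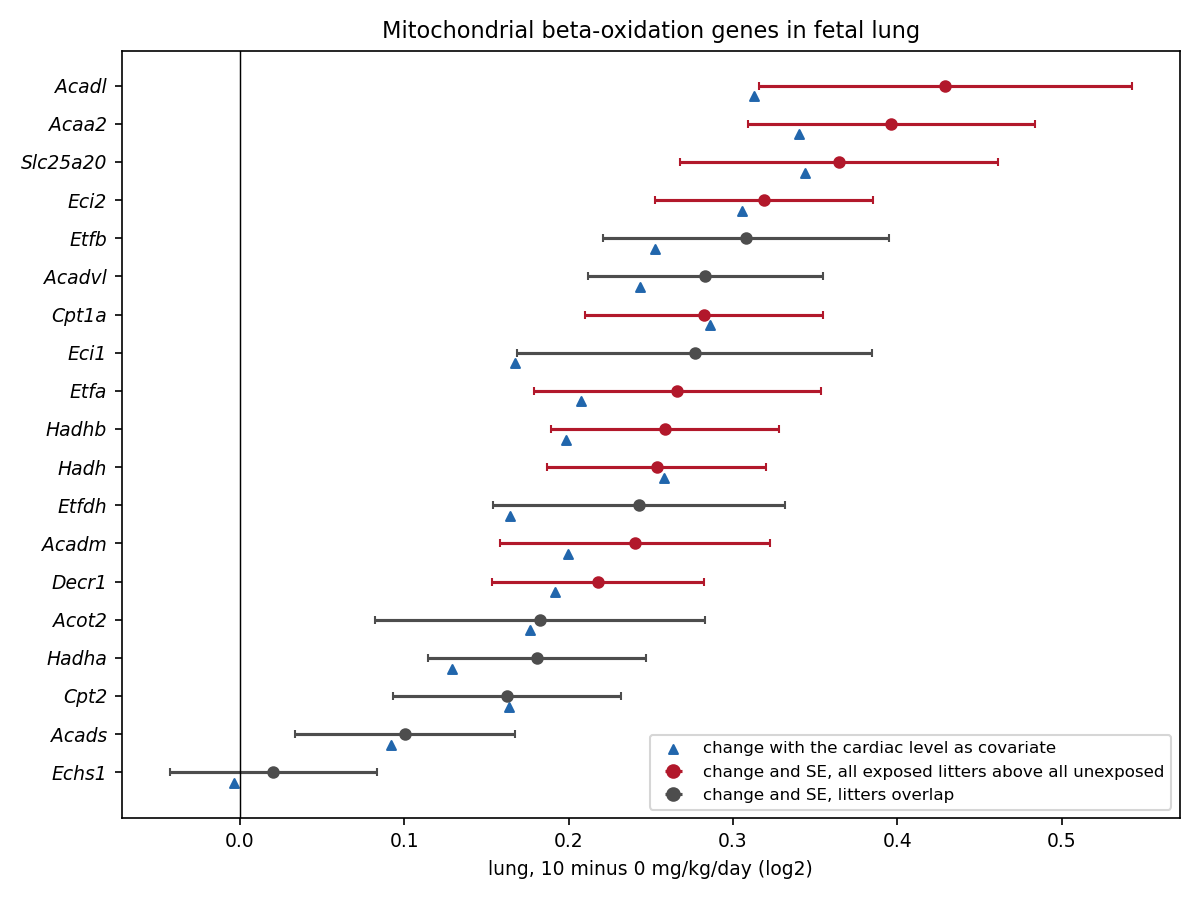
Change in fetal lung (10 minus 0 mg/kg/day, log2, x axis) of the 19 tested mitochondrial beta-oxidation genes (y axis), with the SE of the fit as bars. Red points mark the 10 genes whose exposed litters all lie above the unexposed litters, and blue triangles, drawn just below each point, give the change with the cardiac muscle level of each array as a covariate; all 19 points lie right of 0.

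Cpt1a, the outer mitochondrial enzyme that commits fatty acids to import, stood at 7.96, 8.08, 7.84, 8.10 and 7.77 in unexposed litters and at 8.20, 8.20, 8.17, 8.23 and 8.37 in exposed litters. The groups were separate and the change was 0.28 (SE 0.07, adjusted p = 0.331), with exposed litter 5 apart from the other exposed litters. Slc25a20, the carrier that takes acylcarnitine across the inner membrane, was 0.36 higher (SE 0.10, adjusted p = 0.364). For the first dehydrogenation of long chains, Acadl was 0.43 higher (SE 0.11, adjusted p = 0.364) and Acadvl 0.28 higher (SE 0.07, adjusted p = 0.322). Etfb, a subunit of the flavoprotein that takes up their electrons, was 0.31 higher (SE 0.09, adjusted p = 0.438).

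For the later steps, Hadh, which oxidises short hydroxyacyl chains, was 0.25 higher (SE 0.07, adjusted p = 0.364). The other probe set of Hadh had a change of 0.10. The thiolase Acaa2 stood at 8.99, 9.03, 8.92, 9.24 and 9.09 in unexposed litters and at 9.28, 9.56, 9.39, 9.28 and 9.74 in exposed litters. Its groups came close to each other and did not overlap, and the change was 0.40 (SE 0.09, adjusted p = 0.251). The isomerase Eci2 was 0.32 higher (SE 0.07, adjusted p = 0.183). The cardiac muscle list had a median change of 0.57 and the skeletal muscle list of 0.55, with overlapping groups and no member called, and their part in these differences was not tested. With the cardiac muscle level of each array as a covariate, 12 of the 19 had an unadjusted p under 0.05 and the median change was 0.20; with the hepatocyte level they were 16 and 0.28. Without the litter of highest cardiac level in each group, unexposed litter 1 and exposed litter 5, the number was 14.

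Genes were divided by their level in liver. A gene was taken as enriched in liver where the higher of its unexposed and 10 mg/kg/day liver means was at least 1 above the mean of the 2 lung groups, which gave 1779 such genes and 11118 others. Of the enriched genes, 5 were called and 119 were higher (6.69%) and 28 lower (1.57%) at an unadjusted p under 0.05, with a median change of 0.05. Of the others, 2 were called and 369 were higher (3.32%) and 375 lower (3.37%), with a median of 0.00. In genes not enriched in liver the numbers in either direction were thus close to each other. The balance moved with the limit: at a difference of 0, 173 of 6412 genes were higher and 301 lower, and at 2, 422 of 12220 were higher and 388 lower. Because exposed liver also sets the class, a gene that rises in liver can enter the enriched class. With unexposed liver alone setting it, 385 of 11310 genes not enriched were higher and 376 lower.

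**Figure D3:**
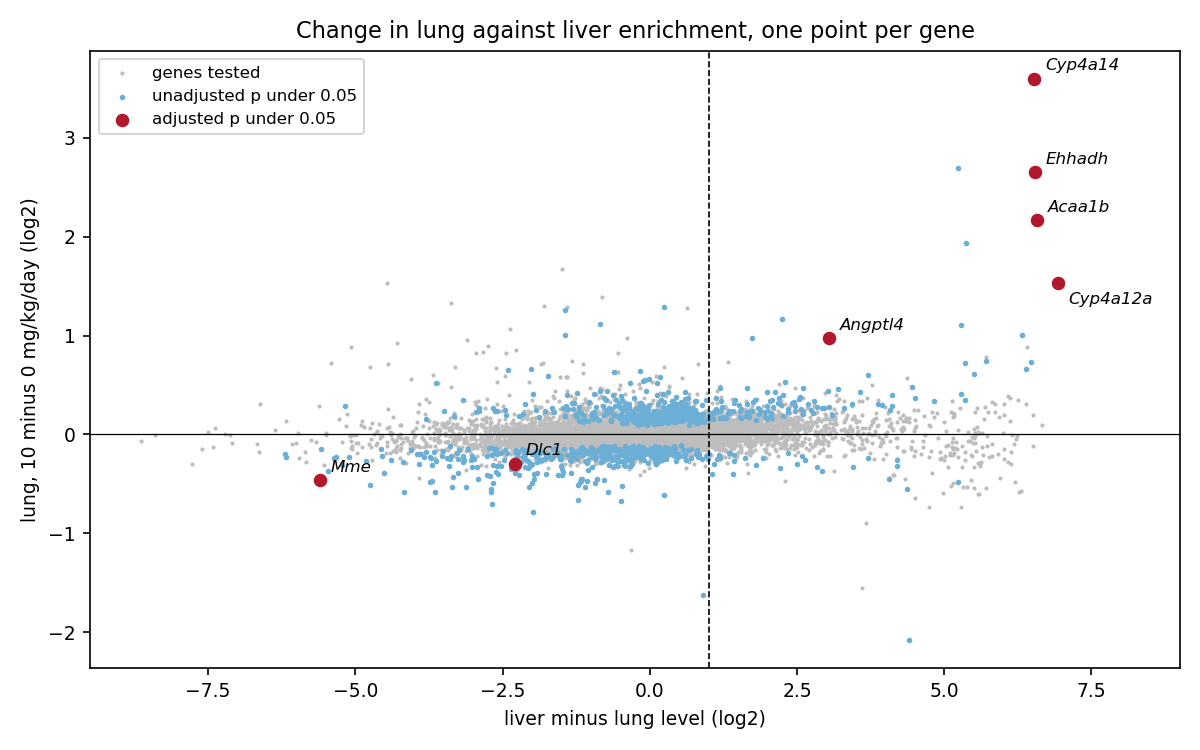
Change in fetal lung (10 minus 0 mg/kg/day, log2, y axis) of each tested gene against its liver enrichment (the higher liver mean minus the mean of the lung groups, log2, x axis). The dashed line marks the enrichment limit of 1; the 5 called genes that rose lie right of it, and Mme and Dlc1, which fell, lie left of it.

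Genes that define hepatocytes were examined apart from the liver-enriched class as a whole. Of 29 tested, 1 was higher and none lower at an unadjusted p under 0.05, beside 3.78% and 3.12% of all genes. The median change was -0.17. The list averaged 8.51, 6.67, 7.08, 7.74 and 7.19 in unexposed litters and 6.41, 7.60, 7.23, 7.08 and 7.65 in exposed litters. The groups overlapped widely, with the highest and the lowest litter in different groups. Alb had a change of -0.17 (SE 0.29) and Apoa1, the main protein of high density lipoprotein, of -0.73 (SE 0.51), and neither was called. Without unexposed litter 1 they were 0.04 and -0.40. The member that differed was Afp, the fetal plasma protein alpha-fetoprotein, at 8.29, 9.91, 10.00, 11.20 and 10.77 in unexposed and 10.17, 11.65, 11.23, 11.22 and 11.74 in exposed litters (change 1.17, SE 0.47, adjusted p = 0.642). With the hepatocyte level as a covariate Ehhadh changed by 2.74, Cyp4a14 by 3.65, Acaa1b by 2.34, Angptl4 by 0.97 and Cyp4a12a by 1.57, and each kept its call.

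Other liver genes moved apart from one another. Cyp3a11, a cytochrome P450 known for drug metabolism, stood at 8.44, 5.45, 5.07, 6.53 and 5.99 in unexposed litters and at 7.49, 8.58, 8.26, 8.21 and 8.61 in exposed litters. Unexposed litter 1 overlapped the exposed range and the change was 1.94 (SE 0.71, adjusted p = 0.594). Serpina1c, an alpha-1-antitrypsin secreted by hepatocytes, was 12.30, 8.62, 9.25, 9.97 and 9.08 in unexposed litters and 6.80, 8.40, 7.99, 7.35 and 8.30 in exposed litters. All exposed litters lay below all unexposed ones, with unexposed litter 1 far above the rest, and the change was -2.08 (SE 0.74, adjusted p = 0.594). Unexposed litter 1 also had the highest hepatocyte level of the 10 arrays. With that level as a covariate in limma, Cyp3a11 had a change of 2.38 (adjusted p = 0.00222). Serpina1c had a change of -1.59 in the same fit (adjusted p = 0.00570).

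Among genes not enriched in liver, Mme had the strongest evidence. It encodes neprilysin, a membrane peptidase that cleaves small peptides, and is bright on the lung arrays. Its levels were 8.52, 8.38, 8.64, 8.59 and 8.66 in unexposed litters and 8.15, 7.99, 8.32, 8.09 and 7.91 in exposed litters. Every exposed litter lay below every unexposed litter, the nearest pair being unexposed litter 2 and exposed litter 3. Mme fell by 0.47 (SE 0.08, adjusted p = 0.0406), to 72.5% of the unexposed signal, and its other probe set had a change of -0.43. The call was lost in 12 of 15 fits that left out a litter and in 12 of 16 other settings, and the change stayed between -0.52 and -0.42 in all of them.

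Dlc1, a GTPase-activating protein that limits contraction of the cytoskeleton, was the other. It stood at 9.10, 9.02, 9.04, 9.09 and 8.96 in unexposed litters and at 8.79, 8.79, 8.66, 8.80 and 8.69 in exposed litters. The SDs were 0.06 and 0.07, and the groups were separate. Dlc1 fell by 0.29 (SE 0.05, adjusted p = 0.0406), to 81.6% of the unexposed signal. Its 3 other probe sets had changes of -0.12, -0.65 and -0.08, and the call was lost in 13 of 15 fits without a litter and in 11 of 16 other settings. Of 12 tested membrane peptidases, Mme among them, 10 had a change below 0, where 6727 of all 12897 genes had one above 0. That list was written with results of these data known. Beside Mme, the phosphate-regulating peptidase Phex was 0.58 lower (SE 0.18, adjusted p = 0.542).

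No other gene outside the liver-enriched class passed the test. With an unadjusted p under 0.05 and no overlap between the groups, 46 such genes were higher and 66 lower, leaving out symbols of clones and predicted genes. Over all genes, 0.636% had every exposed litter above every unexposed litter, and 0.597% had every exposed litter below. Among the largest differences below 0 was that of Lrp2, the endocytic receptor megalin, which stood at 5.22, 5.20, 5.64, 5.30 and 5.31 in unexposed litters and at 4.67, 4.80, 4.64, 4.60 and 4.65 in exposed litters. The exposed litters were close together and all below, with a change of -0.66 (SE 0.15, adjusted p = 0.261, and 0.0168 with the 2 groups alone in the fit). Its other probe set had a change of -0.35, and with probe sets averaged the change was -0.27. Amph, amphiphysin of membrane curvature, had a change of -0.79 (SE 0.21, adjusted p = 0.364), with all exposed litters between 4.54 and 4.72.

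Fgfr4, a receptor for fibroblast growth factors, was among the brighter of these genes. Its levels were 8.80, 8.55, 8.72, 8.79 and 8.66 in unexposed litters and 8.35, 8.20, 8.18, 8.50 and 8.33 in exposed litters. The ranges came close to each other without overlap, and the change was -0.39 (SE 0.09, adjusted p = 0.240). Id2, an inhibitor of helix-loop-helix factors that marks the distal lung tips, was 0.32 lower (SE 0.10, adjusted p = 0.495), and Prdm1, a transcriptional repressor, was 0.32 lower (SE 0.09, adjusted p = 0.402). The lysophosphatidic acid receptor Lpar3 was 0.58 lower and the potassium channel subunit Kcne2 0.49 lower (adjusted p = 0.322 for each). Slc27a3, an acyl-CoA synthetase, was 0.45 lower (SE 0.09, adjusted p = 0.144), the smallest p of these, and was called with both tissues in 1 fit (adjusted p = 0.00938).

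Genes of the same class with differences above 0 and no overlap came from several families. Mycl, a member of the MYC family, was 5.85, 6.23, 6.31, 6.21 and 6.21 in unexposed litters and 6.71, 6.64, 6.47, 6.85 and 6.33 in exposed litters. Exposed litter 5 lay just above the highest unexposed litter, and the change was 0.44 (SE 0.11, adjusted p = 0.322). Another probe set of Mycl had a change of 0.15, and with probe sets averaged the change was 0.24. Gsta4, a glutathione transferase that detoxifies products of lipid peroxidation, was 0.31 higher (SE 0.07, adjusted p = 0.278), and its change in liver at the same dose was -0.58 (adjusted p = 0.00163). Usp2, a deubiquitinase, was 0.37 higher (SE 0.10, adjusted p = 0.364), Il18, an interleukin of epithelium and macrophages, 0.37 higher (SE 0.13, adjusted p = 0.594), and Perp, a desmosome protein, 0.30 higher (SE 0.08, adjusted p = 0.364). The largest difference by size in this class with an unadjusted p under 0.05 was of Ear3, a ribonuclease of eosinophils, at -1.62 (SE 0.59, adjusted p = 0.594). Exposed litters 2 and 5 were at 5.27 and 5.36 and the other exposed litters between 7.39 and 8.52, which overlapped the unexposed range of 7.95 to 9.14.

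Striated muscle transcripts varied widely between litters: the SD of the heart muscle list was 0.71 in unexposed and 0.77 in exposed litters, while that of the alveolar type 2 list was 0.06 and 0.13. Of 42 tested heart muscle genes, 41 had a change above 0, as 6727 of all 12897 genes did. The list's median change was 0.57 and 23 members exceeded 0.5, yet none was called. At an unadjusted p under 0.05, 2 were higher, beside 3.78% of all genes. The mean level of the list was 7.36, 6.08, 5.56, 5.89 and 6.65 in unexposed litters and 6.25, 6.67, 6.99, 6.41 and 8.18 in exposed litters. The groups overlapped: unexposed litter 1 exceeded every exposed litter but litter 5. Without unexposed litter 1 the number at an unadjusted p under 0.05 was 14, and without unexposed litter 3 it was 0.

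**Figure D4:**
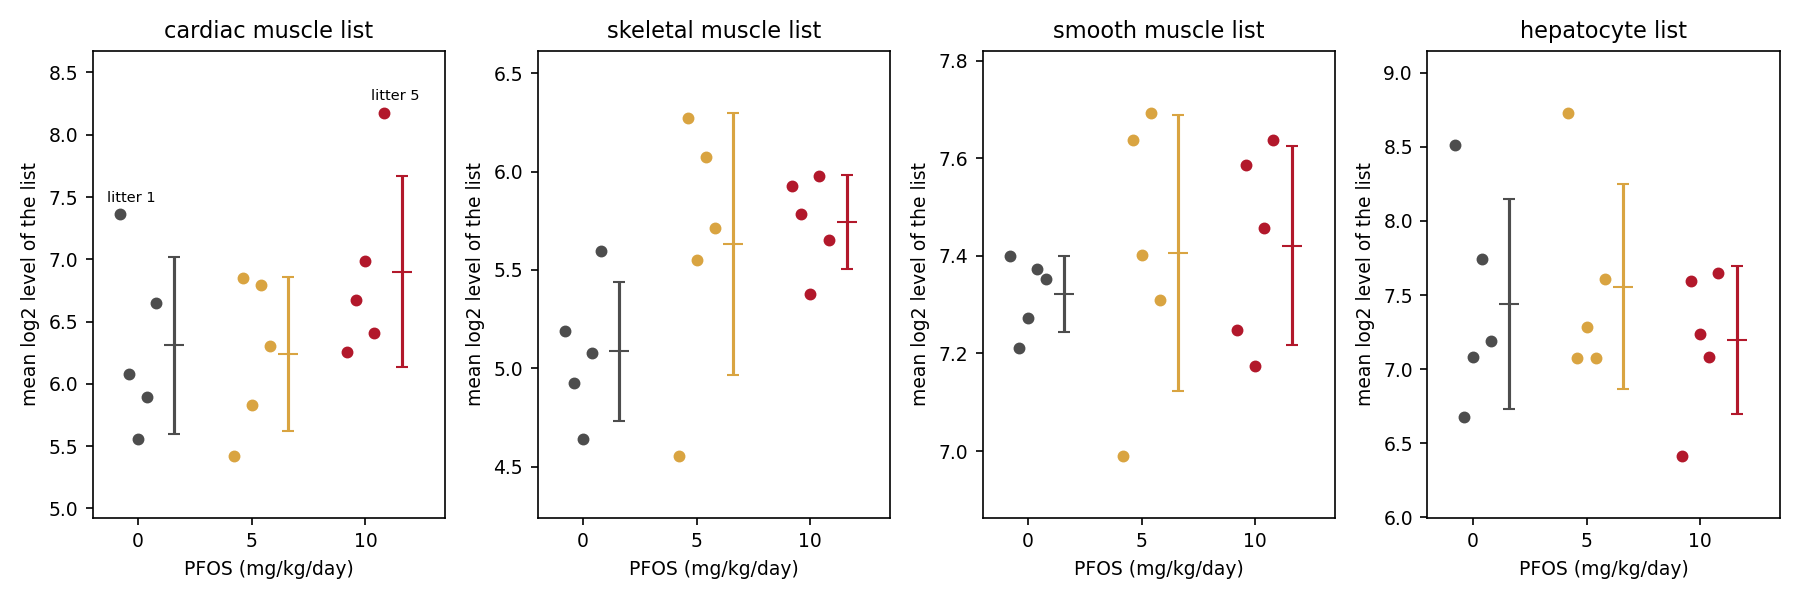
Mean log2 level of the tested genes of 4 marker lists (y axis, which differs between panels) in each fetal lung array against the dose of PFOS in mg/kg/day (x axis). Points are litters 1 to 5 from left to right and bars are the mean and SD of 5 litters; unexposed litter 1 and exposed litter 5, named in the cardiac panel, have the highest cardiac level of their groups, and the groups at 0 and 10 mg/kg/day overlap in every panel.

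The heart muscle genes did not all follow 1 litter. Actc1 stood at 11.81, 9.88, 9.37, 9.80 and 10.78 in unexposed litters and at 10.32, 10.93, 11.28, 10.54 and 12.19 in exposed litters, a change of 0.73 (SE 0.47, adjusted p = 0.812). Myh6, the atrial myosin heavy chain, had a change of 0.31 (SE 0.48) and Myl7, the atrial light chain, of 0.29 (SE 0.43). Without unexposed litter 3 these were 0.01 and -0.01, and without unexposed litter 1 they were 0.71 and 0.67. In exposed litter 5, Actn2, the actinin of the Z disc, was at 9.14 against 5.95 to 6.93 in the other exposed litters, and Myoz2, another Z-disc protein, at 8.16 against 5.63 to 6.29. Myl7 in that litter was 10.77, inside the range of the other exposed litters, 10.22 to 11.13. Nppb, the natriuretic peptide released by strained heart muscle, had a change of 1.12 (SE 0.45, adjusted p = 0.642), with exposed litters at 4.94, 6.41, 6.48, 5.18 and 6.83.

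Of 37 matched skeletal muscle genes, 19 passed the detection filter. All 19 had a change above 0, as 6727 of all 12897 genes did. The filter could be met through exposed litters alone, so this count is not independent of it. The member Mybpc1 averaged 3.69 in unexposed litters, below the filter of 4.16 to 4.22. The list's median change was 0.55, and 5 members were higher at an unadjusted p under 0.05, beside 3.78% of all genes. The mean level was 5.19, 4.93, 4.64, 5.08 and 5.60 in unexposed litters and 5.93, 5.79, 5.38, 5.98 and 5.65 in exposed litters, so that unexposed litter 5 lay above exposed litter 3. Mylpf, a light chain of fast muscle, was at 4.43, 4.67, 4.44, 5.20 and 5.99 in unexposed and 6.90, 6.35, 5.40, 7.0 and 5.55 in exposed litters (change 1.29, SE 0.54, adjusted p = 0.651). Acta1, the actin of skeletal muscle, had a change of 1.26 (SE 0.56, adjusted p = 0.689), and Tnni2, fast troponin I, of 0.43 (SE 0.13, adjusted p = 0.529). The exposed litters with the highest skeletal levels, 4 and 1, were not those with the highest cardiac level. At 5 mg/kg/day, against the same unexposed litters, the median change was 0.37 for skeletal and -0.06 for cardiac muscle. The list count without a litter ranged from 1, without unexposed litter 3, to 10, without unexposed litter 5.

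Of 21 tested smooth muscle genes, 1 was higher and 2 lower at an unadjusted p under 0.05, beside 3.78% and 3.12% of all genes. The median change was 0.12, or -0.04 with the cardiac level as a covariate. Acta2, the actin of smooth muscle and myofibroblasts, stood at 10.63, 10.32, 10.47, 10.55 and 10.58 in unexposed litters and at 10.15, 11.12, 10.40, 10.83 and 10.96 in exposed litters. Exposed litters lay on both sides of the unexposed range, and the change was 0.18 (SE 0.20, adjusted p = 0.894). With the cardiac level as a covariate 3 of the 7 genes were called (Cyp4a14, Ehhadh and Angptl4), and Mme and Dlc1 had changes of -0.43 and -0.29 (adjusted p = 0.130 for each). Without the litter of highest cardiac level in each group Mme had a change of -0.43 (adjusted p = 0.214) and Dlc1 of -0.27 (adjusted p = 0.333). Of 9 tested genes of brown fat, a tissue of the fetal chest, 3 were higher at an unadjusted p under 0.05. Over all genes 3.78% were higher, and the list's median change was 0.26. The list's level ran from 5.67 to 6.10 in unexposed and from 5.97 to 6.80 in exposed litters, while its defining gene Ucp1 was below the detection filter in both groups (means 3.05 and 3.06). Among them Fabp4, a fatty acid binding protein of fat and capillaries, was 7.33, 6.77, 6.95, 6.90 and 7.40 in unexposed and 8.04, 7.24, 7.76, 8.36 and 8.82 in exposed litters (change 0.97, SE 0.24, adjusted p = 0.322). The part of admixed tissue in these differences was not tested.

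In the lung epithelium no marker was called. Of 30 tested genes of alveolar type 2 cells and surfactant, 4 were lower and none higher at an unadjusted p under 0.05. Over all genes 3.12% were lower and 3.78% higher, and the list's median change was -0.05. Sftpc stood at 13.53, 13.56, 13.59, 13.60 and 13.60 in unexposed litters and at 13.58, 13.55, 13.60, 13.59 and 13.53 in exposed litters, a change of -0.01 (SE 0.04) near the top of the array's range. The other surfactant proteins were lower by more and varied more. Sftpa1 had a change of -0.29 (SE 0.16, adjusted p = 0.769), Sftpb of -0.28 (SE 0.14, adjusted p = 0.726) and Sftpd of -0.29 (SE 0.17, adjusted p = 0.778). Without exposed litter 5 the changes of Sftpa1 and Sftpd were -0.17 and -0.18, without exposed litter 1 that of Sftpb was -0.43, and with cardiac and skeletal covariates that of Sftpa1 was -0.05. Sftpb in exposed litters was 12.20, 11.29, 11.40, 11.84 and 11.39, against 11.72 to 12.03 in unexposed litters, so that exposed litter 1 was the highest of all 10 and exposed litters 2, 3 and 5 the lowest.

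**Figure D5:**
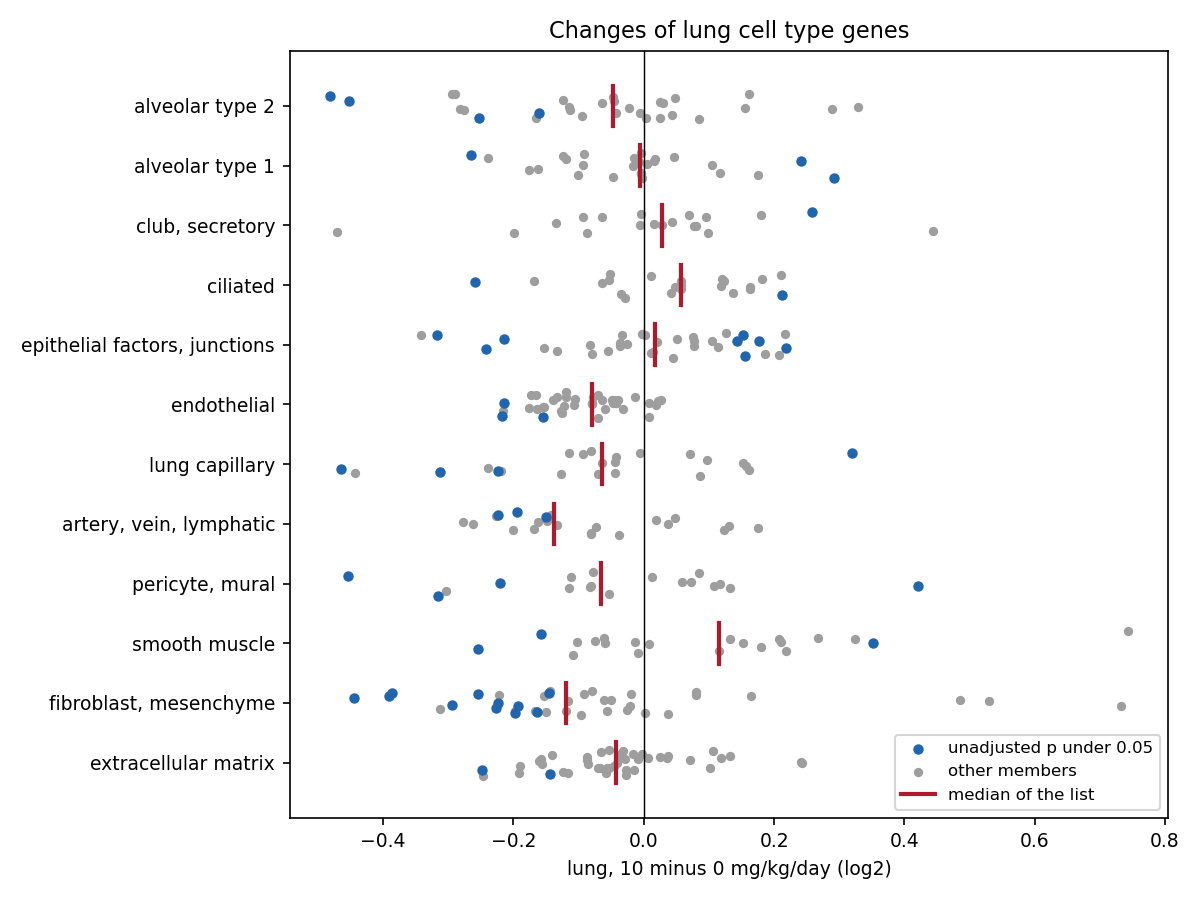
Change in fetal lung (10 minus 0 mg/kg/day, log2, x axis) of each tested member of 12 lists of lung cell types and matrix (y axis; points are spread vertically at random). Blue points have an unadjusted p under 0.05, grey points do not, and red bars are list medians; the fibroblast and mesenchyme list has 11 blue points, all left of 0.

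Abca3, the transporter that loads lipid into lamellar bodies, stood at 10.34, 10.39, 10.43, 10.53 and 10.44 in unexposed litters and at 10.38, 10.15, 10.28, 10.32 and 10.19 in exposed litters. Exposed litter 1 lay within the unexposed range and the other exposed litters lay below it (change -0.16, SE 0.06, adjusted p = 0.625). Il33, an alarmin stored in the nuclei of type 2 cells, was 0.48 lower (SE 0.15, adjusted p = 0.529), and exposed litters 1 and 4 overlapped the unexposed range. Nkx2-1, the transcription factor that specifies lung epithelium, had a change of -0.34 (SE 0.17, adjusted p = 0.726). Retnla, a secreted resistin-like protein, was 0.53 lower (SE 0.12, adjusted p = 0.261), and was called with both tissues in 1 fit.

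Of 26 tested genes of alveolar type 1 cells, 2 were higher and 1 lower at an unadjusted p under 0.05. Over all genes 3.78% were higher and 3.12% lower, and the list's median change was -0.01. Ager was at 12.73 in both groups, with a change of -0.004 (SE 0.06). Aqp5, the water channel of these cells, was 9.28, 9.05, 9.0, 9.07 and 9.32 in unexposed litters and 8.96, 8.66, 8.76, 9.14 and 8.87 in exposed litters (change -0.26, SE 0.09, adjusted p = 0.594). Only exposed litter 4 lay inside the unexposed range. Pdpn, podoplanin, had a change of 0.17 (SE 0.10), the chloride channel protein Clic3 of 0.29 (SE 0.12) and the guidance signal Sema3a of 0.24 (SE 0.10), so members of the list differed in both directions.

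Airway genes had small differences. Of 19 tested genes of club and secretory cells 1 was higher, Cyp2f2, a cytochrome P450 of club cells (change 0.26, SE 0.11, adjusted p = 0.642), and the median change was 0.03. Scgb1a1 had a change of -0.06 (SE 0.09). Of 22 tested genes of ciliated cells 1 was higher and 1 lower, with a median of 0.06, and Foxj1, the master factor of motile cilia, had a change of -0.03 (SE 0.09). Of 34 epithelial factors and junction genes, 5 were higher and 3 lower at an unadjusted p under 0.05, beside 3.78% and 3.12% of all genes, and the median change was 0.02. Those higher included Epcam, an epithelial adhesion molecule, at 0.18 (SE 0.06), the protease inhibitor Spint2 at 0.14 (SE 0.05) and the epithelial factor Elf3 at 0.22 (SE 0.08). None of the 3 was called (adjusted p = 0.594, 0.594 and 0.625). The other probe set of Epcam had a change of -0.01 and that of Spint2 of 0.07.

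Vascular genes were lower in sign more often than higher, by small amounts. Of 39 tested genes common to endothelium, 34 had a change below 0, where 6727 of all 12897 genes had one above 0. The list's median change was -0.08, with a range of -0.22 to 0.03. At an unadjusted p under 0.05, 3 were lower, beside 3.12% of all genes, and none was higher. None was called. The mean level of the list was 8.61, 8.58, 8.65, 8.66 and 8.55 in unexposed litters and 8.55, 8.49, 8.49, 8.56 and 8.50 in exposed litters. Unexposed litter 5 lay inside the exposed range, and the rest of the unexposed litters above it. The canonical markers Pecam1, an adhesion molecule of endothelial junctions, and Kdr, the main receptor of VEGF, each had a change of -0.05 (SE 0.07 and 0.08). The 3 members were Ramp2, a partner of the adrenomedullin receptor, at -0.22 (SE 0.07), the nitric oxide synthase Nos3 at -0.22 (SE 0.10) and the transcription factor Fli1 at -0.15 (SE 0.06).

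Of 23 tested genes of lung capillaries, Mme was called and fell, and the median change was -0.06. At an unadjusted p under 0.05, 3 were lower and 1 was higher, beside 3.12% and 3.78% of all genes. Car4, a carbonic anhydrase of alveolar capillaries, stood at 7.07, 7.17, 7.61, 7.17 and 7.03 in unexposed litters and at 6.97, 6.22, 7.36, 7.02 and 6.26 in exposed litters. Exposed litters 2 and 5 were well below the others and exposed litter 3 lay above most unexposed ones, giving a change of -0.44 (SE 0.23, adjusted p = 0.757). Of 22 genes of arteries, veins and lymphatics, 3 were lower and none higher, with a median of -0.14. The arterial connexin Gja4 was 7.19, 7.19, 7.23, 7.30 and 7.26 in unexposed litters and 7.01, 7.10, 6.93, 7.16 and 7.0 in exposed litters, without overlap (change -0.19, SE 0.07, adjusted p = 0.594). The venous factor Nr2f2 was 0.22 lower (SE 0.09) and Nrp1, a coreceptor of VEGF and semaphorins, 0.15 lower (SE 0.06). Other probe sets of Nr2f2 had changes of -0.14, 0.10, 0.17, -0.20 and -0.26, and with probe sets averaged its change was -0.09. Those of Nrp1 had changes of -0.14, -0.13 and -0.004.

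Among 36 growth signals of vessels and hypoxia genes, none was called. At an unadjusted p under 0.05, 5 were lower and 4 higher, beside 3.12% and 3.78% of all genes. Those lower included Angpt1, the ligand that steadies vessels through the receptor TIE2, at 7.22, 7.05, 7.19, 7.09 and 7.08 in unexposed and 6.91, 6.91, 6.96, 6.80 and 6.98 in exposed litters. The groups did not overlap, and the change was -0.22 (SE 0.07, adjusted p = 0.542). The lymphatic growth factors Vegfc and Vegfd had changes of -0.46 (SE 0.18) and -0.47 (SE 0.19), and Pde5a, which degrades cyclic GMP in vessel walls, of -0.19 (SE 0.07). Other probe sets of Vegfc had changes of -0.54 and -0.15, and those of Vegfd of -0.25 and -0.23. Bnip3, a hypoxia-induced mitochondrial protein, was 0.30 higher (SE 0.11, adjusted p = 0.594). Of 18 pericyte and mural genes, 3 were lower and 1 higher. Rgs5, which marks pericytes, was 0.42 higher (SE 0.16), while Cox4i2, a cytochrome oxidase subunit that also marks them, was 0.45 lower (SE 0.16), so the pericyte markers did not move as 1 group.

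The fibroblast and mesenchyme list had more genes with a lower level at an unadjusted p under 0.05 than the other lung lists. Of 37 tested genes of fibroblasts and mesenchyme, Dlc1 was called, and 11 were lower and none higher at an unadjusted p under 0.05, where 3.12% of all genes were lower. The median change was -0.12, and 29 members had a change below 0, where 6727 of all 12897 genes had one above 0. In 4 members every exposed litter lay below every unexposed litter, beside 0.597% of all genes. As a mean over members the list was at 8.49, 8.31, 8.46, 8.38 and 8.40 in unexposed litters and 8.43, 8.27, 8.21, 8.44 and 8.30 in exposed litters. At the level of the whole list the groups overlapped. The number of lower genes was 10 with the cardiac level and 11 with the hepatocyte level as a covariate, 8 without the litter of highest cardiac level in each group, and 10 to 13 without 1 litter.

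Transcription factors of the lung mesenchyme were among them. Foxf2 was 6.84, 6.57, 6.42, 6.70 and 6.50 in unexposed litters and 6.0, 6.19, 6.25, 6.54 and 6.12 in exposed litters, with only exposed litter 4 inside the unexposed range (change -0.39, SE 0.10, adjusted p = 0.331). Foxf1, which mesenchyme and capillaries both need, had a change of -0.22 (SE 0.07, adjusted p = 0.594), Tbx4, which sets the identity of lung mesenchyme, of -0.23 (SE 0.08, adjusted p = 0.594), and Tcf21 of -0.15 (SE 0.06, adjusted p = 0.641). Tbx2, a related factor on the lists of capillaries and of branching signals, had a change of -0.31 (SE 0.10, adjusted p = 0.542). The second probe set of Tbx4 had a change of -0.22 and that of Foxf1 of -0.16.

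A matrix receptor and its ligand were on the same list. Itga8, the integrin chain of myofibroblasts, stood at 9.72, 9.69, 9.78, 9.76 and 9.87 in unexposed litters and at 9.64, 9.38, 9.54, 9.45 and 9.55 in exposed litters. Its ligand nephronectin, Npnt, stood at 11.16, 11.03, 11.04, 11.13 and 11.20 in unexposed litters and at 11.00, 10.89, 10.94, 10.91 and 10.84 in exposed litters. Neither overlapped between the groups, and the changes were -0.25 (SE 0.07, adjusted p = 0.428) for Itga8 and -0.20 (SE 0.05, adjusted p = 0.402) for Npnt. Mfap4, a protein of elastic fibres, had a change of -0.19 (SE 0.06, adjusted p = 0.556). By contrast Pdgfra, the receptor that marks fibroblasts, had a change of 0.001 (SE 0.09), and the matrix genes Eln and Col1a1 had changes of -0.09 (SE 0.07) and -0.25 (SE 0.25). Of 44 extracellular matrix genes 2 were lower and none higher at an unadjusted p under 0.05, with a median of -0.04. Over all genes 3.12% were lower and 3.78% higher.

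Of 50 genes of branching and signals between epithelium and mesenchyme, 4 were lower and 1 higher at an unadjusted p under 0.05. Over all genes 3.12% were lower and 3.78% higher. A change below 0 was seen in 40 of the 50, where 6727 of all 12897 genes had one above 0. The list's median was -0.07. Gli1, a direct target of hedgehog signals in mesenchyme, was 5.85, 5.15, 5.21, 5.51 and 5.82 in unexposed litters and 5.04, 4.97, 5.03, 5.46 and 4.83 in exposed litters. Exposed litter 4 overlapped the unexposed range and the change was -0.45 (SE 0.16, adjusted p = 0.594). The WNT receptor Fzd2 had a change of -0.43 (SE 0.16, adjusted p = 0.594) on the probe set used, and of -0.03 and 0.01 on its 2 others. The 1 higher member was the ligand Wnt11, at 0.25 (SE 0.10, adjusted p = 0.637).

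No gene of the cell cycle, stress or defence lists was called. Of 38 tested cell cycle genes none had an unadjusted p under 0.05, and the median change was 0.07. Of 25 genes of xenobiotic metabolism 5 were higher and none lower, beside 3.78% and 3.12% of all genes, Gsta4, Cyp3a11 and Cyp2f2 among them, with a median of 0.07. Of 20 genes of endoplasmic reticulum and heat stress 1 was higher and 3 lower, with a median of -0.05. The lower members are chaperones: Dnajb9 had a change of -0.26 (SE 0.07, adjusted p = 0.428), Calr of -0.27 (SE 0.10, adjusted p = 0.607) and Hsp90b1 of -0.12 (SE 0.06, adjusted p = 0.712), each with overlapping groups. The 2 other probe sets of Calr had changes of -0.14 and -0.07. Of 19 genes of oxidative stress 2 were higher and none lower, and of 18 of inflammation and interferon 1 was higher. Of 21 genes that respond to glucocorticoids, the hormones that mature the fetal lung, 2 were higher and none lower, with a median of 0.02. Of 26 macrophage and granulocyte genes 2 were higher, among them the scavenger receptor Marco of alveolar macrophages (change 0.60, SE 0.22, adjusted p = 0.595). Marco averaged 3.93 in unexposed litters, below the detection filter of 4.16 to 4.22, so its change is that of a dim signal.

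The doses were not separated by the test. Between 10 and 5 mg/kg/day no gene was called by limma and 296 had an unadjusted p under 0.05; the smallest adjusted p was 1.00. At 5 mg/kg/day, against the same 5 unexposed litters, Cyp4a14 and Ehhadh were called, with changes of 3.01 and 1.85 beside 3.60 and 2.66 at 10 mg/kg/day. Acaa1b had 1.79 and 2.17, Angptl4 0.57 and 0.97, and Cyp4a12a 0.94 and 1.53. Mme had -0.29 and -0.47, and Dlc1 -0.18 and -0.29. The median change of the mitochondrial beta-oxidation list was 0.12 and 0.26. The 5 and 10 mg/kg/day comparisons share their unexposed litters, so these pairs of values are not independent of each other.

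The difference between tissues was tested as the lung change minus the liver change at 10 mg/kg/day, in 1 fit of both tissues. The labels do not say whether lung and liver arrays of 1 number come from the same litter, and the fit takes them as independent, which the SEs and p-values of these differences rest on. None of the 7 genes passed at an adjusted p under 0.05. Cyp4a14 rose by 3.60 in lung and 2.29 in liver, a difference of 1.30 (SE 0.41, adjusted p = 0.0751). For Ehhadh the changes were 2.66 and 3.30, a difference of -0.65 (SE 0.31, adjusted p = 0.297). For Dlc1 they were -0.29 and 0.09, a difference of -0.38 (SE 0.12, adjusted p = 0.0847), and for Mme -0.47 and 0.02, a difference of -0.49 (SE 0.24, adjusted p = 0.337), Mme being near the array's lower limit in liver.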

How the data were processed

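RNA of fetal lung was measured on 1 array per litter. The authors deposited log2 signals, 1 per probe set, produced by RMA, which adjusts for background, equalises array distributions and summarises probes, per the submitters' processing notes. Its version is not given in the sources used, nor which arrays it normalized jointly. RMA can understate changes of dim probe sets. Gene names came from the platform annotation, using probe sets that carry 1 symbol (34945 of 45101, against 932 with several and 9160 with none, and 64 controls). Each gene was represented by its brightest probe set, judged by the mean of the 30 arrays, and entered the test if that probe set exceeded the 40th percentile on 5 or more of the 15 lung arrays. Lung arrays of all 3 doses entered 1 limma model (version 3.58.1, R 4.3.3) with a mean for each dose and moderated variances, and two-sided p-values were adjusted over 12897 genes. Nothing on the arrays gives a depth, and the number of litters limits the precision. Plots used matplotlib 3.10.9 with numpy 2.4.6, and the fit was tested on simulated data.

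The comparison, the 42 gene lists (1120 of 1195 entries matched a gene) and the rule for named genes were chosen with earlier results of these data known. The rule takes called genes, the 15 largest rises and falls among genes not enriched in liver whose groups do not overlap at an unadjusted p under 0.05, up to 4 members of each list by p, and fixed cell type markers. The text names a subset of these and says where a gene lies outside. Promoters are from the RefSeq table of GRCm38.p6. The labels share replicate numbers between doses, and whether these pair litters was checked. Alternatives covered the filter, normalization, array weights, samples in the fit, the replicate number as a block, covariates, probe set choice, the variance model, the liver limit and leaving out litters.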

Additional observations from a re-analysis of the deposited data

Results flagged for a closer look

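In groups of 5 litters, a litter was marked when its gap to the nearest of the others exceeded 0.710 of the group's range. Groups were examined for the genes named in the text and for the mean levels of the muscle, hepatocyte and erythroid lists. Of these 244 groups 9 were marked, and chance alone marks about 1 in 20. Cpt1a was at 8.37 in exposed litter 5 against 8.17 to 8.23 in the other exposed litters, and Myoz2 at 8.16 in the same litter against 5.63 to 6.29. The other marked values were all in unexposed litters. Mycl was at 5.85 in litter 1 against 6.21 to 6.31, Nrk, a kinase, at 6.81 in litter 5 against 6.48 to 6.56, and Sftpa1 at 11.30 in litter 5 against 11.80 to 11.99. In litter 3, Lrp2 was at 5.64 against 5.20 to 5.31, Car4 at 7.61 against 7.03 to 7.17, and Phex at 6.03 against 6.53 to 6.65. Scn3a, a sodium channel, was at 4.74 in litter 2 against 4.31 to 4.39.

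Probe sets without a single gene symbol were outside the main test. Of 10092, 4361 passed the detection filter and 257 (5.89%) had an unadjusted p under 0.05, and 3 were called. A probe set shared by Cyp4a31 and Cyp4a10, relatives of Cyp4a14, was 2.83 higher at 10 than at 0 mg/kg/day (SE 0.35, limma adjusted p = 0.00283). One shared by the thioesterases Acot2 and Acot1 was 0.56 higher (SE 0.08, limma adjusted p = 0.00764). One without a symbol was 2.76 higher (SE 0.47, limma adjusted p = 0.0461), from a mean of 2.46 (SD 0.31) in unexposed litters. All unexposed litters lay below the detection filter of 4.16 to 4.22, so it entered the test through exposed litters alone. It was not called when every probe set was tested without the filter.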

How the results depend on the processing

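The number of genes called at 10 against 0 mg/kg/day was 7, of which 2 were not enriched in liver. It was 4 with no filter, 4 after quantile normalization, 4 with array weights, 4 with the replicate block, 4 with the sex make-up covariate, 3 with the cardiac covariate, 3 with probe sets averaged, and 13 with both tissues in 1 fit and with the hepatocyte covariate. Among genes not enriched in liver the number was 0 with no filter, quantile normalization, array weights, the replicate block, the sex make-up, the cardiac covariate, averaged probe sets and every probe set tested, and 1 with arrays centred on their median and with the 2 groups alone. Of 2 alternatives chosen after seeing the data, cardiac and skeletal covariates gave 4 calls, 0 of them not enriched in liver, and leaving out the litter of highest cardiac level in each group gave 5 and 0. Leaving out 1 litter gave 3 to 11 calls, 0 to 3 of them not enriched in liver: 4 without unexposed litter 1 or 4 or litter 1, 2, 3 or 4 at 5 mg/kg/day. Between 10 and 5 mg/kg/day it gave 0 to 1, the 1 without litter 3 at 5 mg/kg/day. Ehhadh and Cyp4a14 were called in each of these settings. Same-numbered litters at 0 and 10 mg/kg/day deviated with correlations from -0.31 to 0.14 and no unexposed litter matched its own number best, so the numbers were not taken as pairs; the 4 calls under the block were Angptl4, Cyp4a12a, Cyp4a14 and Ehhadh. No called gene changed direction in any setting. Of 110 named genes without a call, 7 turned direction and 16 others moved by over 1.5 times when 1 litter was left out, and 12 and 41 did so under the other alternatives. Dim signals limit Cyp4a12a and Cyp4a14, with 5 and 3 unexposed litters below the filter.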
